A study of Mus musculus with 34 samples.

Results

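Hepatocytes of mice with and without a biliary deletion of YAP and TAZ were compared for how their transcripts responded to carbon tetrachloride (CCl4). The quantity described is the genotype by CCl4 interaction, a difference of differences: the log2 change with CCl4 in knockout livers minus the log2 change with CCl4 in control livers. A value above 0 means that CCl4 moved a transcript further upward, or less far downward, in knockout livers. All 18 hepatocyte libraries of the 34 libraries in the study entered the fit, chosen by their group labels, and every one of 9679 transcripts that passed a filter on low counts, of 24951 listed, was tested.

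Each library came from 1 mouse of a mixed B6;129P background. Control mice carried floxed alleles of Yap and Taz (genes Yap1 and Wwtr1) and no Cre, and knockout mice were their siblings that also carried Opn-iCreERT2, a tamoxifen-dependent Cre recombinase under the osteopontin promoter. Mice of both genotypes received tamoxifen at 1.6 mg/kg on 5 days, when they were 7 to 8 weeks old, and then 3 weeks of washout, so the controls share the floxed alleles and the tamoxifen. A portion of each genotype then received CCl4 at 1 ml/kg and was taken 48 h later. The groups were 6 control and 5 knockout mice without CCl4, and 3 control and 4 knockout mice with it. The osteopontin promoter directs the deletion to bile duct cells, so the hepatocytes measured here are not the cells meant to lose YAP and TAZ. Hepatocytes were collected from perfused livers by low-speed spins, a Percoll gradient and sorting for exclusion of propidium iodide, with no surface marker named. The study set these groups side by side to follow liver regeneration when the bile ducts are disturbed.

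CCl4 is turned into a reactive radical by cytochrome P450 enzymes of the hepatocytes around the central vein. Those cells die, neighbouring hepatocytes enter the cell cycle, and resident macrophages (Kupffer cells), recruited monocytes and stellate cells respond around the injured area. YAP and TAZ are transcriptional coactivators that act through TEAD factors, and in bile duct cells they help to keep the duct epithelium intact. An interaction asks whether the response to injury differs with genotype, which neither response alone can show.

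Hepatocyte libraries held 931496 to 7535053 counts. The numbers of the sequencing files fell into 2 series, the only sign of a batch in the files. The first held 5 control libraries (mice 2, 7 and 8 without CCl4, and 12 and 15 with it) of 4910846 to 7535053 counts, and the second held the other 13, of 931496 to 2411576 counts, with every knockout library. Mouse 15 is a control by its genotype and group labels and a knockout by its description, and it was counted as a control. The macrophage library with the number of mouse 15 is a control by both its group label and its description. The 11 hepatocyte markers examined (Alb, Apoa1, Ttr and others) summed to 84264 to 129786 CPM (counts scaled to a common library total) in every library, and none was at 0. Yap1 ranged from 37.9 to 48.4 CPM in control and from 38.2 to 49.6 CPM in knockout livers without CCl4. With CCl4, Yap1 ranged from 44.2 to 53.5 CPM in controls and from 54.1 to 76.9 CPM in knockouts, and its interaction of 0.47 ± 0.22 (SE) was not called (adjusted p = 0.465). Wwtr1 had an interaction of -0.63 ± 0.34 (adjusted p = 0.558). Neither value checks the deletion, which is directed to other cells, and 3′ tags can lie outside the deleted part.

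The response to CCl4 differed with genotype for 21 transcripts, which is 0.217% of those tested (called here where the adjusted p was under 0.05 in edgeR's quasi-likelihood test). Only Krt23 and Abca8a lay above 0 (2 of all tested, 0.0207%), and the other 19 lay below 0 (0.196%). In 17 of the 21 the response was reversed, meaning that the responses of the 2 genotypes had opposite signs and were each at least 0.5 on the log2 scale. It was blunted, meaning of smaller size in knockout livers, in the other 4, which were Nid1, Haus8, Nrg1 and Incenp. No called transcript was enhanced. Adjusted p-values of the 21 lay between 0.0358 and 0.0493, so all stood close to the threshold.

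The count of 21 depended on the fit and on single libraries. With the earlier form of edgeR's quasi-likelihood test, which lacks the adjustment for small counts, 0 were called and 878 had an unadjusted p under 0.05. DESeq2 called 61 and limma voom 33, of which 19 and 9 were among the 21. A term for the file series gave 54 calls, among them all 21. The second series alone held a single control library with CCl4 (mouse 16), so the interaction calls of that fit are not counted here. They could not show whether the interaction depends on the file series. Leaving out mouse 15 left 2 calls, and treating it as a knockout left 0. The sign of the interaction of each of the 21 was the same in every one of the alternatives that could test it. The 21 were chosen by their interaction, and the alternatives refit mostly the same libraries. This agreement thus follows largely from the choice and lends no support.

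The direction of the 21 in each genotype is a description, since these comparisons share samples with the interaction. In control livers CCl4 raised 19 of them (13.7% of all transcripts tested were called upward) and lowered 2 (13.7% were called downward). In knockout livers it raised 4 (background 7.02%), lowered 1 (background 6.84%) and was not called for 16. Without CCl4, 18 were higher in knockout than in control livers (background 4.64%) and 1 was lower (background 3.23%). All uninjured knockout libraries were in the second file series, against 3 of the 6 uninjured controls. With a term for the series, the calls between genotypes without CCl4 over all transcripts fell from 762 to 79. After CCl4, 1 of the 21, Krt23, was called between genotypes (0.124% of all transcripts were called higher in knockouts). Both responses were called, in opposite directions, for 3 transcripts, namely Krt23, Abca8a and Slc11a1.

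**Figure D1:**
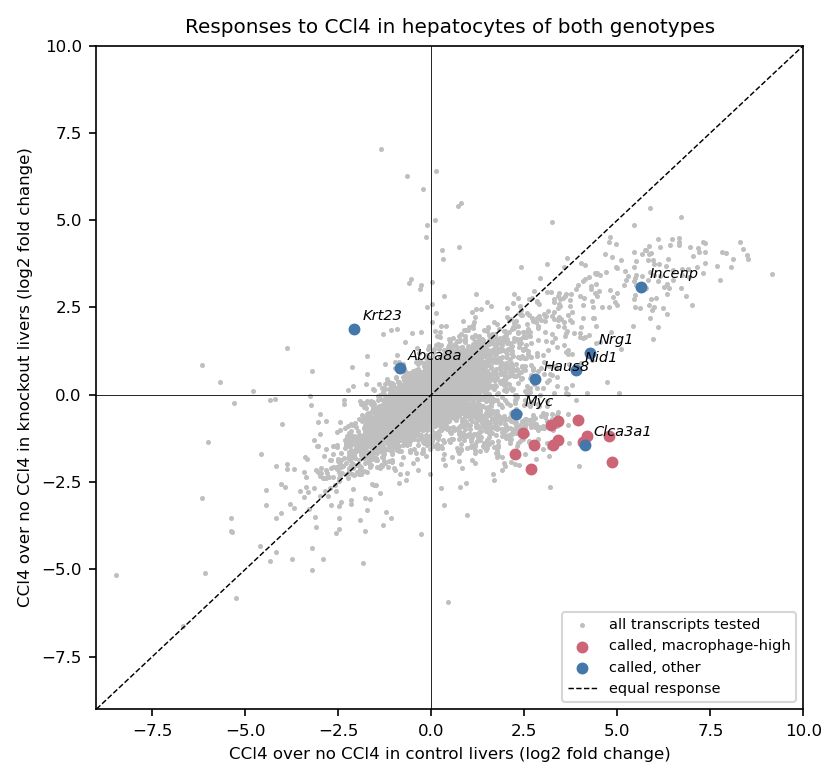
Each point is a transcript, with the log2 change with CCl4 in control livers on the x axis and in knockout livers on the y axis. The 13 called macrophage-high transcripts (red) lie at 2.26 to 4.85 in control and at -2.12 to -0.73 in knockout livers, below the dashed line of equal responses, and Krt23 and Abca8a lie above it.

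Levels in the sorted macrophages of the same study (16 libraries) were used to split the 21. A transcript is called macrophage-high where its mean CPM over the 4 macrophage groups was at least 8 times that over the 4 hepatocyte groups. The 2 tables were counted and scaled separately, so this ratio sets a level across tables. Hepatocyte markers summed to 700 to 43289 CPM (median 14846) in the sorted macrophages, so hepatocyte transcripts were present there too. For such transcripts the ratio can understate the difference between the cell types. By this rule 13 transcripts were macrophage-high and 8 were not. The 8 had macrophage levels 0.269 to 4.14 times those of the hepatocyte libraries.

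Krt23 (GRCm38 chromosome 11, 99477974 to 99493137, minus strand), a type I keratin found in bile duct and other epithelia, had the lowest p of all. Without CCl4 it ranged from 4.69 through a median of 11.4 to 19.7 CPM in controls, and was 7.71, 4.46, 5.78, 13.3 and 7.71 CPM in knockouts. With CCl4 it was 0.763, 5.34 and 3.19 CPM in controls, against 25.4, 41.8, 33.8 and 17.2 CPM in knockouts. The groups overlapped without CCl4, and with CCl4 every knockout library lay above every control library. CCl4 lowered Krt23 in controls by a log2 change of -2.08 ± 0.49 (SE, adjusted p = 0.00303) and raised it in knockouts by 1.90 ± 0.44 (adjusted p = 0.00647). The interaction was 3.98 ± 0.66 (adjusted p = 0.0358). It was called in 18 of 31 alternatives, with values from 3.10 to 4.83, and without mouse 15 it was 4.83 (adjusted p = 0.018).

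Abca8a (chromosome 11, 110025634 to 110095978, minus strand), a lipid transporter of the ABC family, was the other transcript above 0. Controls without CCl4 ranged from 74.8 through a median of 91.8 to 109.8 CPM, and knockouts were 18.5, 33.7, 34.7, 28.9 and 31.7 CPM. With CCl4 the controls were 51.5, 46.8 and 55.7 CPM and the knockouts 58.1, 68.1, 49.7 and 25.9 CPM. Without CCl4 the genotypes did not overlap, with all knockouts lower, and after CCl4 they did. Abca8a fell by 0.85 ± 0.24 in controls (adjusted p = 0.0105) and rose by 0.76 ± 0.24 in knockouts (adjusted p = 0.0341), giving an interaction of 1.61 ± 0.33 (adjusted p = 0.0452). It was called in 10 of 31 alternatives, with values from 1.40 to 1.84.

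The 250 bases before the RefSeq starts of these transcripts (GRCm38.p6) are shown because they are the only 2 called above 0, both on the minus strand. Capitals mark motif matches in the order in which they stand. In Krt23 (chr11:99493121-99493370) they are a PU.1 motif (GAGGAA) and a C/EBP motif (TTGCNNAA), and in Abca8a (chr11:110095938-110096187) a PU.1 motif on the opposite strand (TTCCTC) and a TEAD motif (GGAATG).
Krt23: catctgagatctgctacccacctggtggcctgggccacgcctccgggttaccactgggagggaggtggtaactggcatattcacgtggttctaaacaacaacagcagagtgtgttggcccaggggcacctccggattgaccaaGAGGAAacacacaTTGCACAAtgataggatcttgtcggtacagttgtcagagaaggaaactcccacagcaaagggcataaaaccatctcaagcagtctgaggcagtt
Abca8a: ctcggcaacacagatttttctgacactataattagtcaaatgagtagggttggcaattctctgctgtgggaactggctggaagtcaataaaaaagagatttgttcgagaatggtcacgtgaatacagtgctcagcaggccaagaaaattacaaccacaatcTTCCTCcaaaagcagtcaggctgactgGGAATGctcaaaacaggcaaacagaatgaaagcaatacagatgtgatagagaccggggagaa

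Both strands were searched, and a match is a description of letters, not a site. Of 32851 promoters of this length, 12.6% held the TEAD motif, 23.3% the PU.1 motif, 6.75% an AP-1 motif (TGANTCA) and 9.56% the C/EBP motif. Of the 21 called transcripts 17 had a RefSeq promoter in the table, and those holding each motif numbered 4, 9, 4 and 5. For a gene with several listed starts (Nin with 3, Mmp12 with 2), only the start nearest the annotated gene start was searched. The counts thus take a single promoter per gene, while the shares cover every listed promoter.

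Nid1 (chromosome 13, 13437551 to 13512269), nidogen 1 of the basement membrane, was the most abundant of the called transcripts below 0. Without CCl4 it ranged from 0.902 through a median of 3.03 to 8.49 CPM in controls and was 94.5, 50.3, 26.7, 67.4 and 29.1 CPM in knockouts. With CCl4 it was 53.2, 37.9 and 67.4 CPM in controls and 63.5, 58.9, 86.3 and 139.9 CPM in knockouts. Only the controls without CCl4 stood apart, and every other group lay above them. The log2 change with CCl4 was 3.88 ± 0.45 in controls (adjusted p = 4.03e-06) and 0.70 ± 0.37 in knockouts (adjusted p = 0.242), and the interaction was -3.18 ± 0.59 (adjusted p = 0.0393).

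Myc (chromosome 15, 61985391 to 61990374), a transcription factor that drives cell growth and entry into the cycle, had the same arrangement. Its controls without CCl4 ranged from 0.902 through 1.78 to 3.12 CPM, and the knockouts were 14.4, 12.7, 9.38, 28.1 and 3.43 CPM. With CCl4 the controls were 8.01, 11.97 and 10.6 CPM and the knockouts 10.02, 12.4, 7.51 and 7.96 CPM. All knockouts without CCl4 lay above all controls without it, and the genotypes overlapped after CCl4. Myc rose by 2.28 ± 0.40 in controls (adjusted p = 0.000208), had a change of -0.55 ± 0.38 in knockouts (adjusted p = 0.389), and had an interaction of -2.83 ± 0.56 (adjusted p = 0.0393).

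Nrg1 (chromosome 8, 31814551 to 32884029), neuregulin 1, a ligand of the ERBB receptors, was lowest of all 21 in macrophages relative to hepatocytes, at 0.269 times. It ranged from 0 through 0.551 to 3.18 CPM in controls without CCl4 and was 8.22, 5.09, 5.78, 13.3 and 5.14 CPM in knockouts without it. With CCl4 it was 10.7, 14.2 and 13.8 CPM in controls and 15.4, 19.4, 15.9 and 18.6 CPM in knockouts, so the genotypes did not overlap in either state. CCl4 raised it in both genotypes, by 4.27 ± 0.49 in controls and by 1.20 ± 0.38 in knockouts (adjusted p = 0.0364). The interaction was -3.07 ± 0.65 (adjusted p = 0.0439), while the difference between genotypes after CCl4, 0.43 ± 0.38, was not called (adjusted p = 0.639).

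Haus8 and Incenp belong to the machinery of cell division. Haus8 (chromosome 8, 71248561 to 71272934) encodes a subunit of the augmin complex of the spindle, and Incenp (chromosome 19, 9872296 to 9899551) the scaffold of the chromosomal passenger complex. Incenp reached 39.3, 42.5 and 40.1 CPM in controls with CCl4 and 39.4, 44.1, 24.4 and 43.8 CPM in knockouts with it, which overlap. Before injury it was 0 to 1.17 CPM in controls and 5.14, 1.27, 2.17, 10.4 and 3.43 CPM in knockouts, which do not overlap. The blunted response of Incenp, 5.64 ± 0.37 in controls and 3.09 ± 0.33 in knockouts, thus came with a different starting level and similar end levels. The highest uninjured knockout, at 10.4 CPM, was mouse 20. Incenp was called in 9 of 31 alternatives, with values from -2.83 to -1.58. Haus8 started at 1.06 to 4.24 CPM in controls and 4.11 to 10.3 CPM in knockouts, and ended at 13.9 to 15.5 CPM and 7.35 to 13.9 CPM. Its interaction was -2.34 ± 0.46 (adjusted p = 0.0393), and that of Incenp -2.55 ± 0.54 (adjusted p = 0.0439).

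Clca3a1 (chromosome 3, 144729677 to 144760977), a member of the calcium-activated chloride channel regulator family, had the largest interaction of the 8, -5.56 ± 1.01 (adjusted p = 0.0358), at low levels. Only 5 reads stood behind the 6 controls without CCl4, and the transcript was at 0 in 3 of them. The knockouts without CCl4 were 19.5, 3.18, 7.22, 6.66 and 0.857 CPM. With CCl4 the controls were 3.62, 8.57 and 4.25 CPM and the knockouts 2.67, 2.32, 1.88 and 3.98 CPM.

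**Figure D2:**
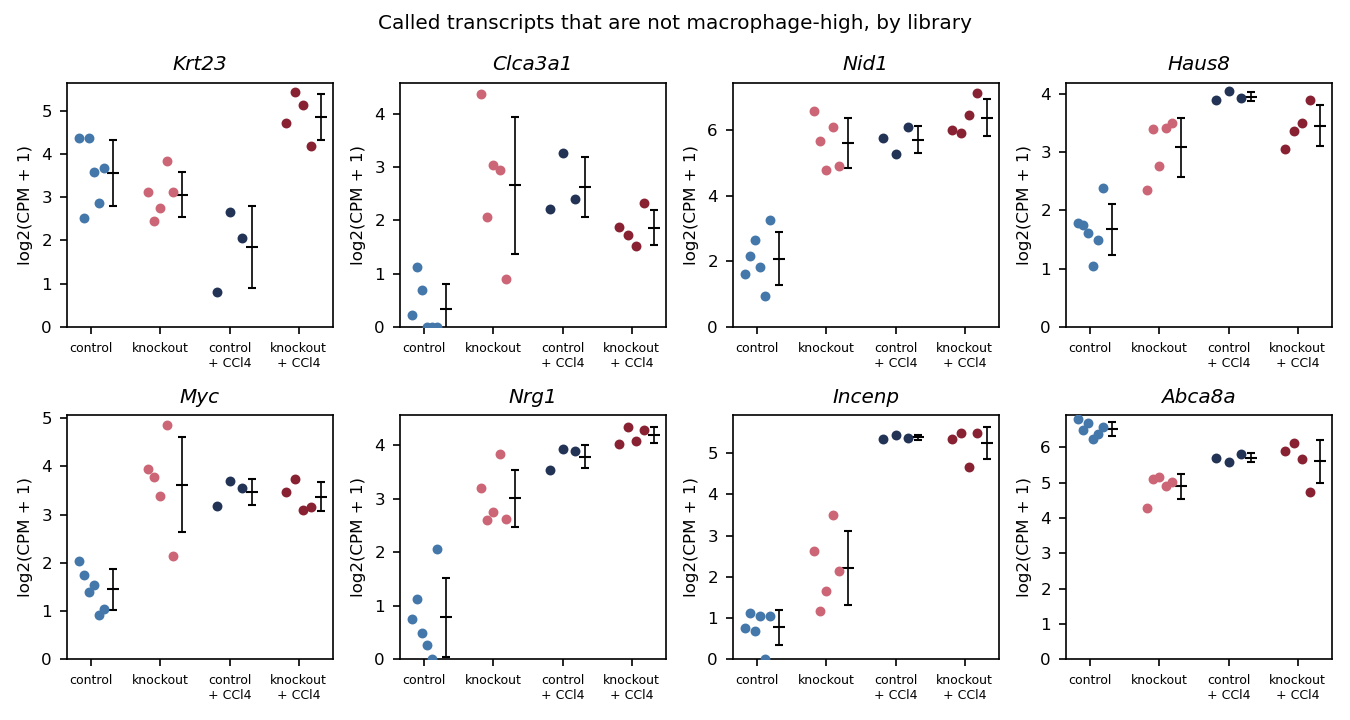
Each panel shows a called transcript that was not macrophage-high, on a log2(CPM + 1) axis, with 1 point per mouse and the group mean and SD of these log values beside the points. Krt23 has its highest group mean in the 4 knockout libraries with CCl4 (17.2 to 41.8 CPM, overlapping controls without CCl4), Abca8a is highest in controls without CCl4 (74.8 to 109.8 CPM), and in the other 6 panels the controls without CCl4 are the lowest group.

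The 13 macrophage-high transcripts were all reversed and all below 0. They were Nin, C3ar1, Apbb1ip, Slc11a1, Ifi27l2a, Mmp12, Slc7a8, Clec12a, Fabp7, Fgl2, Ccl3, Gm14023 and Cd84, with macrophage levels 16.6 to 67.6 times those of the hepatocyte libraries. In control livers their log2 changes with CCl4 were 2.26 to 4.85, and all 13 were called upward. In knockout livers they were -2.12 to -0.73, and only Slc11a1 was called (adjusted p = 0.046). Interactions lay between -6.78 and -3.56, with a median of -4.70.

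These levels were low. Group means were 0.302 to 1.72 CPM in controls without CCl4, 4.52 to 15.0 CPM in knockouts without it, 4.97 to 27.9 CPM in controls with it and 1.65 to 4.86 CPM in knockouts with it. At least 1 group mean reached 10 CPM in 4 of the 13. The sum over the 13 was 3.81, 29.3, 17.2, 3.82, 6.31 and 24.4 CPM in control mice 2, 6, 7, 8, 9 and 19 without CCl4. In knockout mice 4, 5, 10, 20 and 21 it was 187, 125, 46.2, 67.4 and 35.1 CPM. After CCl4 it was 97.1, 108 and 162 CPM in controls and 50.8, 32.5, 21.6 and 41.5 CPM in knockouts. On these sums every knockout lay above every control among mice without CCl4 and below every control among mice with it. The 13 were chosen by their interaction in these same libraries, so this order follows largely from the choice and is a description. Mice 4 and 5 were the highest of the uninjured knockouts.

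Receptors and surface proteins of myeloid cells made up one group. C3ar1, the receptor of complement fragment C3a, had 10.6 ± 1.4 CPM (SD, n = 3) in controls with CCl4 and 4.86 ± 1.87 CPM (n = 4) in knockouts with it. Its means without CCl4 were 1.51 ± 1.20 CPM (n = 6) and 8.43 ± 7.17 CPM (n = 5), and its interaction was -4.07 ± 0.76 (SE, adjusted p = 0.0358). Clec12a, an inhibitory C-type lectin, had an interaction of -4.15, and Cd84, a SLAM-family receptor, one of -3.96. Apbb1ip, which couples Rap1 to integrin activation in blood cells, had one of -4.70. Slc11a1, a metal ion transporter of phagosomes, had one of -4.79, and Slc7a8, an amino acid transporter, one of -5.43.

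Secreted products made up another. Mmp12, the macrophage elastase, was 15.8, 30.4 and 37.6 CPM in controls with CCl4 and 0.668, 0.774, 0.938 and 4.31 CPM in knockouts with it, with no overlap. Without CCl4 it ranged from 0 to 6.37 CPM in controls and was 7.71, 10.8, 0, 2.96 and 1.71 CPM in knockouts, which overlap. Mmp12 was the only one of the 13 not called between genotypes without CCl4 (2.32 ± 0.89, adjusted p = 0.101), and after CCl4 its difference was -3.65 ± 0.80 (adjusted p = 0.0579). Ccl3, a chemokine for monocytes and neutrophils, was 11.8, 8.28, 5.05, 5.18 and 11.1 CPM in knockouts without CCl4, above the 0 to 4.69 CPM of the controls. Fgl2, a fibrinogen-like protein, and Ccl3 had interactions of -5.37 and -4.72.

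The remaining members had other or less known roles. Fabp7, a fatty acid binding protein also made by Kupffer cells, had the lowest interaction of all, -6.78 ± 1.37, with 4 reads behind the 6 controls without CCl4. Ifi27l2a, an interferon-inducible gene, had an interaction of -4.67, and Nin, ninein of the centrosome, one of -3.56. Gm14023 (chromosome 2, 129297370 to 129307826), annotated as a processed transcript with no protein, had one of -4.21. The strand setting of the counting is not given in the sources used here, so reads of overlapping genes may be included in any of these.

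The promoters of C3ar1 (chr6:122856158-122856407) and Ccl3 (chr11:83649379-83649628), both on the minus strand, are shown as examples from transcripts that moved together, with an AP-1 match in the former and a PU.1 match on the opposite strand (TTCCTC) in the latter in capitals.
C3ar1: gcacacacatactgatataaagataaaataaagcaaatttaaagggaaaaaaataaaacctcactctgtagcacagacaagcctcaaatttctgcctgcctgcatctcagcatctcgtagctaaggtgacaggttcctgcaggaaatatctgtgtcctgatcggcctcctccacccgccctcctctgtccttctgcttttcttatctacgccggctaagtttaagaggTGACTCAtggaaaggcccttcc
Ccl3: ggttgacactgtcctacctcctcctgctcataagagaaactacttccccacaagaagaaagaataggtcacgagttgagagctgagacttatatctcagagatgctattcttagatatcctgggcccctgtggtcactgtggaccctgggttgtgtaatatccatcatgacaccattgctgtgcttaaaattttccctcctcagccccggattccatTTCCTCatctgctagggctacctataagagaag

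The same 13 transcripts were measured in the sorted macrophages, where each was tested. Macrophage mouse 11 (with CCl4) has a control genotype and group label but a description that says knockout, and it entered as a control. There 0 were called for the interaction by edgeR's quasi-likelihood test, against 21 of 10815 transcripts (0.194%) in that table, and 1 had an unadjusted p under 0.05. That 1 was Mmp12, with -3.92 ± 0.93 (adjusted p = 0.104). The interactions of the 13 in macrophages lay between -3.92 and 0.53, with a median of -0.49, and 12 were below 0. For Mmp12 the macrophage responses to CCl4 were 4.201 ± 0.72 in controls (adjusted p = 0.00179) and 0.28 ± 0.63 in knockouts (adjusted p = 0.917). Without mouse 11, 0 of the 13 were called and 3 (C3ar1, Slc7a8 and Mmp12) had an unadjusted p under 0.05, with a median of -0.67 and -4.21 ± 0.90 for Mmp12 (adjusted p = 0.0841).

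The split by macrophage level is given for all transcripts tested as a description. Transcripts this low in hepatocyte libraries can pass the filter on low counts through the groups where they are high, so counts over those that passed support no direction. Of 441 macrophage-high transcripts that passed, 429 (97.3%) lay below 0, with a median of -1.97, and 256 below and 0 above had an unadjusted p under 0.05. The other 9238 had a median of 0.04, and 45.9% lay below 0. Among them 400 below and 331 above had an unadjusted p under 0.05. For all 9679 the median was 0.02, and 987 (10.2%) had an unadjusted p under 0.05, of which 656 (6.78%) lay below and 331 (3.42%) above. With no filter 3226 macrophage-high transcripts entered, 73.4% lay below 0, the median was -1.31, and 636 lay below 0 at that p. Without knockout mouse 4, whose Kupffer markers were highest, 387 transcripts were macrophage-high, with a median of -1.47, and 150 of them lay below 0 at that p.

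Sorted by class at an unadjusted p under 0.05, 168 of the 256 macrophage-high transcripts were reversed, 75 blunted and 13 enhanced. The 731 others held 84 reversed, 511 blunted and 136 enhanced. Transcripts at least 8 times higher in the hepatocyte libraries, a category added after seeing the data, numbered 117, had a median interaction of 0.15 and held 3 below and 2 above 0 at that p. Hepatocyte transcripts in the sorted macrophages limit how many can reach this ratio.

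**Figure D3:**
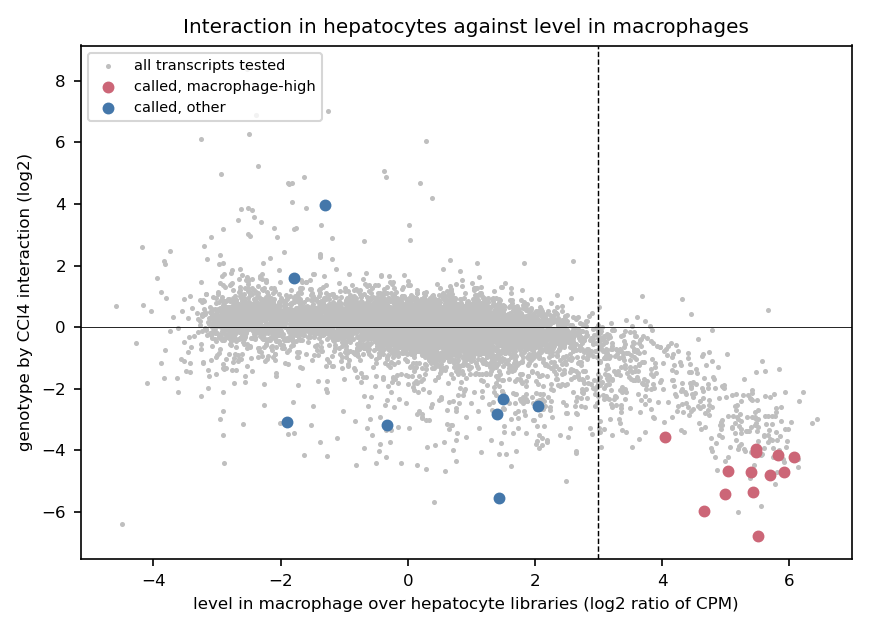
Each point is a transcript that passed the filter on low counts, with its log2 ratio of macrophage to hepatocyte CPM on the x axis and its interaction on the y axis, and the dashed line marks the 8-fold ratio. Of the 441 to the right of the line 429 lie below 0 (73.4% of 3226 with no filter), while the 9238 to the left have a median of 0.04.

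Markers of Kupffer cells, leukocytes, stellate cells and sinusoidal endothelium also lay mostly below 0. All 12 Kupffer and all 7 leukocyte markers tested were themselves macrophage-high, as were 7 of 12 endothelial and 0 of 11 stellate markers. The macrophage-high ones are among the transcripts just described, so they give no separate support. In these bulk libraries fewer cells of a type and less RNA per cell cannot be told apart. The 13 Kupffer cell markers summed to 53.3 to 321 CPM in controls and 179.75 to 1712 CPM in knockouts without CCl4, the latter led by mouse 4. With CCl4 they summed to 425 to 578 CPM in controls and 217 to 420 CPM in knockouts. In the sorted macrophages the same sum was 7747 to 28206 CPM. Folr2 was at 0 in 17 of the 18 hepatocyte libraries, while Cd5l, C1qb, C1qc, Vsig4 and Csf1r were at 0 in none. At an unadjusted p under 0.05, 6.78% of all transcripts tested and 58.0% of the macrophage-high ones lay below 0. All 12 Kupffer markers tested did so, with a median of -3.11, and 0 were called. Without knockout mouse 4 the median was -2.54, and 8 of the 12 had such a p. Marco, a scavenger receptor, had the lowest value, -5.82 (adjusted p = 0.138).

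The 7 leukocyte markers tested, such as Cd53 and Ptprc, were also all below 0 at an unadjusted p under 0.05, with a median of -3.39 and 0 called. Their sum over 8 markers was 26.0 to 94.9 CPM in controls and 71.3 to 308 CPM in knockouts without CCl4, and 124 to 211 CPM and 50.5 to 116 CPM with it. Stellate and fibroblast markers had a median of -2.98, with 6 of 11 below 0 at that p and 0 called, and without knockout mouse 4 one of -2.38, with 2 of 10. Sinusoidal endothelial markers had a median of -1.90, with 2 of 12 below 0 at that p and 0 called, and 7 of 12 without uninjured control mouse 7. Stellate sums were 11.8 to 421 CPM and 164 to 1239 CPM without CCl4, and 520 to 1472 CPM and 297 to 599.5 CPM with it, in controls and knockouts. Only 4 of 14 listed monocyte markers were tested, with 3 below 0 at that p. Their sum over 13 markers was 14.5 to 92.1 CPM in controls and 68.9 to 238 CPM in knockouts without CCl4. With CCl4 it was 110 to 258 CPM and 103 to 184 CPM, which overlap. Of T and NK cell, neutrophil and red cell markers none passed the filter on low counts. Hepatocyte markers had a median of 0.15. The part of these other cells in the called interactions was not tested.

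**Figure D4:**
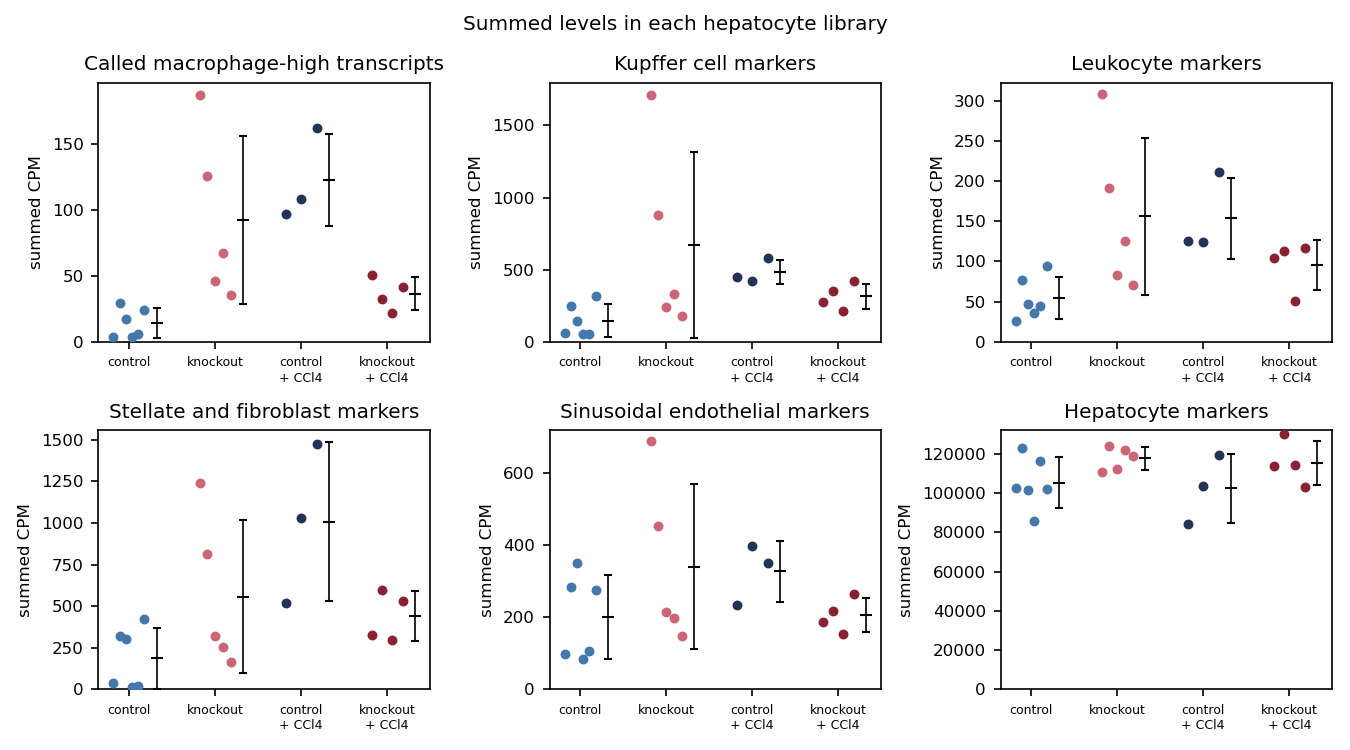
Summed CPM of library totals per mouse in the 4 groups, with the group mean and SD beside the points (the first panel uses CPM scaled by TMM). The sum of the 13 called macrophage-high transcripts and the Kupffer, leukocyte, stellate and endothelial sums have their highest values in uninjured knockout mouse 4 or in controls with CCl4, and hepatocyte markers stay between 84264 and 129786 CPM. Those 13 were chosen by their interaction in these same libraries.

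Gene lists are described by counts and medians, beside a median of 0.02 over all transcripts. At an unadjusted p under 0.05, 6.78% of all transcripts tested lay below 0 and 3.42% above, and 0.217% were called. These shares are the background for the interaction counts of lists with few macrophage-high genes. Of all macrophage-high transcripts that passed the filter, 58.0% lay below 0 at that p. For lists made mostly of such transcripts that share is the nearer background. Mitosis genes showed the largest responses. All 26 tested were called upward by CCl4 in controls (background 13.7%) and all 26 in knockouts (background 7.02%), with median log2 changes of 6.91 and 4.07. All 26 interactions were below 0, with a median of -2.95, 20 at an unadjusted p under 0.05, and 0 were called. In 8 of them a group held 3 counts or fewer, and with those at their bounds the median was -2.90. Knl1, a kinetochore scaffold, had 2 counts in all controls without CCl4 and 20 in the uninjured knockouts, a ratio per depth of 31.0 (95% counting interval 7.52 to 273). These counts are pooled over mice, so the interval does not measure the spread between mice. Among the 5 uninjured knockouts Knl1 ranged from 0 through a median of 0.857 to 11.8 CPM, so the ratio rests largely on a single mouse.

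Mouse 20 stood apart from the other uninjured knockouts. The mean log2(CPM + 1) of the mitosis genes was 4.09 in uninjured knockout mouse 20, against 1.19, 0.904, 0.901 and 1.13 in knockout mice 4, 5, 10 and 21 and 0.383 to 1.11 in uninjured controls. After CCl4 it was 5.92, 6.05 and 5.93 in controls and 5.98, 5.70, 5.99 and 6.37 in knockouts, which overlap. Without mouse 20 the median interaction was -0.76, and 8 genes had an unadjusted p under 0.05.

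DNA replication genes had a median interaction of -1.42, with 12 of 25 below 0 and 1 above at an unadjusted p under 0.05 and 0 called. Mcm2, a subunit of the replicative helicase, had the lowest p. It ranged from 0 to 4.24 CPM in uninjured controls and was 8.22, 5.73, 2.17, 9.62 and 6.00 CPM in uninjured knockouts. With CCl4 it was 39.3, 31.5 and 26.2 CPM in controls and 6.68, 21.7, 11.3 and 17.9 CPM in knockouts, with no overlap. Its interaction was -2.49 ± 0.56 (adjusted p = 0.0566). Uhrf1, which recruits the maintenance methyltransferase to replicated DNA, had -3.67 (adjusted p = 0.114). Without mouse 20 the median over the list was -0.69.

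Cyclins, inhibitors and other G1/S genes had a median of -1.05, with 6 of 16 below 0 at an unadjusted p under 0.05 and Myc called. Cdkn1a, the cell cycle inhibitor p21, was raised by CCl4 by 3.37 in controls and 1.38 in knockouts. It was 177, 323 and 200.3 CPM in controls with CCl4 and 146, 147, 111 and 152 CPM in knockouts with it, which do not overlap, and its interaction was -1.996 ± 0.60 (adjusted p = 0.187). Ccne1, cyclin E1, had an interaction of -2.51 (adjusted p = 0.138).

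Genes of inflammation and matrix lay below 0 in 14 of 15 and 13 of 14 cases. Of 15 pro-inflammatory genes tested 11 were macrophage-high, 11 had an unadjusted p under 0.05 below 0, and Ccl3 was called, with a median of -3.41. Among all macrophage-high transcripts 58.0% lay below 0 at that p. Tnf was 0.637 to 7.04 CPM in uninjured controls and 41.1, 23.6, 1.44, 8.88 and 6.00 CPM in uninjured knockouts, and its interaction was -4.72 ± 1.02 (adjusted p = 0.0511). Ccl2, a monocyte chemokine, had -4.65 (adjusted p = 0.0566). Of 14 matrix genes 8 had an unadjusted p under 0.05, all below 0, and Nid1 and Mmp12 were called, with a median of -2.55. Without knockout mouse 4, 5 of 13 matrix genes had such a p, and without any 1 of injured mice 13, 16 and 17, 5 of 14 did. Col4a1 and Col4a2, the basement membrane collagens that nidogen binds, had interactions of -2.85 (adjusted p = 0.0874) and -2.38 (adjusted p = 0.0566).

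Acute phase proteins are for the most part made and secreted by hepatocytes. Of 24 tested, 11 lay below 0 at an unadjusted p under 0.05 (background 6.78%), with 0 called and a median of -0.80. None of the 24 was macrophage-high. CCl4 lowered 13 of them in knockout livers (background 6.84%) and 4 in control livers (background 13.7%). The 13 became 8 without injured knockout mice 13 or 14 and 7 without mouse 18. Saa3, a serum amyloid A protein, was 207, 91.9 and 1270 CPM in controls with CCl4 and 22.7, 37.2, 33.8 and 40.1 CPM in knockouts with it, with no overlap. Its interaction was -4.67 ± 0.92 (adjusted p = 0.0511). In the sorted macrophages Saa3 had a mean of 1186 CPM (179 to 2956 CPM) in uninjured controls and means of 50.0 to 75.3 CPM in the other groups. Its macrophage level over all groups was 1.51 times that of the hepatocyte libraries. The part of macrophages in the interaction of Saa3 was not tested. Hpx, the heme scavenger hemopexin, was lowered by CCl4 by -1.36 in knockouts (adjusted p = 0.00162) and had a change of -0.03 in controls (adjusted p = 0.946), with an interaction of -1.32 ± 0.37 (adjusted p = 0.129). Cp, the ferroxidase ceruloplasmin, was 5525 to 12401 CPM in uninjured knockouts, above the 1934 to 3375 CPM of uninjured controls, and had an interaction of -1.20 (adjusted p = 0.166).

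Fatty acid oxidation stood on the other side of 0, with 6 of 20 above 0 and 0 below at an unadjusted p under 0.05, 0 called and a median of 0.62. CCl4 raised 7 of the 20 in knockouts (background 7.02%) and 0 in controls (background 13.7%), where it lowered 2 (background 13.7%). Without injured knockout mouse 14 it raised 4 of 19 in knockouts, and without mouse 18 there were 10 of 19 interactions above 0 at that p. Cyp4a14, a fatty acid omega-hydroxylase induced through PPAR-alpha, ranged from 142 to 375 CPM in uninjured controls and was 5.14, 43.3, 63.5, 105 and 60.8 CPM in uninjured knockouts, with no overlap. After CCl4 it was 180.4, 219 and 389 CPM in controls and 72.8, 601, 482 and 112 CPM in knockouts, which overlap. Its interaction was 2.64 ± 0.96 (adjusted p = 0.304), and that of Cyp4a10 was 2.92 ± 0.98 (adjusted p = 0.261). Vnn1, a pantetheinase, had 1.18 (adjusted p = 0.231).

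Bile acid transport genes had 3 of 18 above 0 (background 3.42%) and 0 below (background 6.78%) at an unadjusted p under 0.05. Of them 0 were called, the median was 0.37, and 1 to 5 were above 0 at that p with 1 library left out. Abcb11, the bile salt export pump, was 197, 139 and 123 CPM in controls with CCl4 and 378, 242, 318 and 149.9 CPM in knockouts with it, which overlap. CCl4 lowered it in both genotypes, by -1.62 in controls and -0.76 in knockouts, with an interaction of 0.87 ± 0.34 (adjusted p = 0.337). Abcc3, a basolateral exporter of bile acid conjugates, had 0.65 (adjusted p = 0.442).

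Zonated hepatocyte functions gave small values. CCl4 lowered 15 of 20 pericentral genes in each genotype (background 13.7% in controls and 6.84% in knockouts), with medians of -2.46 and -2.25, and 0 of their interactions had an unadjusted p under 0.05 (0 called). Cyp2e1, the enzyme that activates CCl4, had 1.30 ± 0.69 (adjusted p = 0.558), and Cyp7a1, the rate-limiting enzyme of bile acid synthesis, -1.36 ± 1.07 (adjusted p = 0.747). Periportal genes had a median of 0.18 and cholesterol synthesis genes -0.21. At an unadjusted p under 0.05, 1 of 18 and 1 of 24 lay above 0, near the background of 3.42%, with 0 below and 0 called. A p that misses the threshold does not show equal responses.

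YAP and TAZ target genes had a median of -0.62, with 5 of 16 below 0 at an unadjusted p under 0.05 and 0 called, and 3 of 15 without uninjured knockout mouse 20 or injured control mouse 16. Axl, a receptor tyrosine kinase and itself macrophage-high, had -3.81 (adjusted p = 0.187), Fstl1, a secreted glycoprotein, -2.93 (adjusted p = 0.226), and Birc5, the mitotic protein survivin, -2.36 (adjusted p = 0.313). Biliary markers had a median of -0.94 over 7 genes tested, with 5 below 0 and Krt23 called above 0. Without uninjured knockout mouse 20 the median was -0.18, with 4 of the 7 below 0. Prom1, a membrane protein of duct and progenitor cells, was 0 to 5.30 CPM in uninjured controls and 5.05 to 38.5 CPM in uninjured knockouts, 11.4 to 25.6 CPM in controls with CCl4 and 48.1 to 64.3 CPM in knockouts with it, and had an interaction of -1.84 (adjusted p = 0.32). Sox9, a transcription factor of bile duct cells, had -1.30 (adjusted p = 0.432), and Krt19, a duct keratin, 1.47 (adjusted p = 0.597). The sum of 12 biliary markers, Krt23 included, was 43.7 to 127 CPM and 104 to 333 CPM without CCl4 and 121 to 297 CPM and 246 to 400.3 CPM with it, in controls and knockouts. The part of bile duct cells in the result for Krt23 was not tested.

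**Figure D5:**
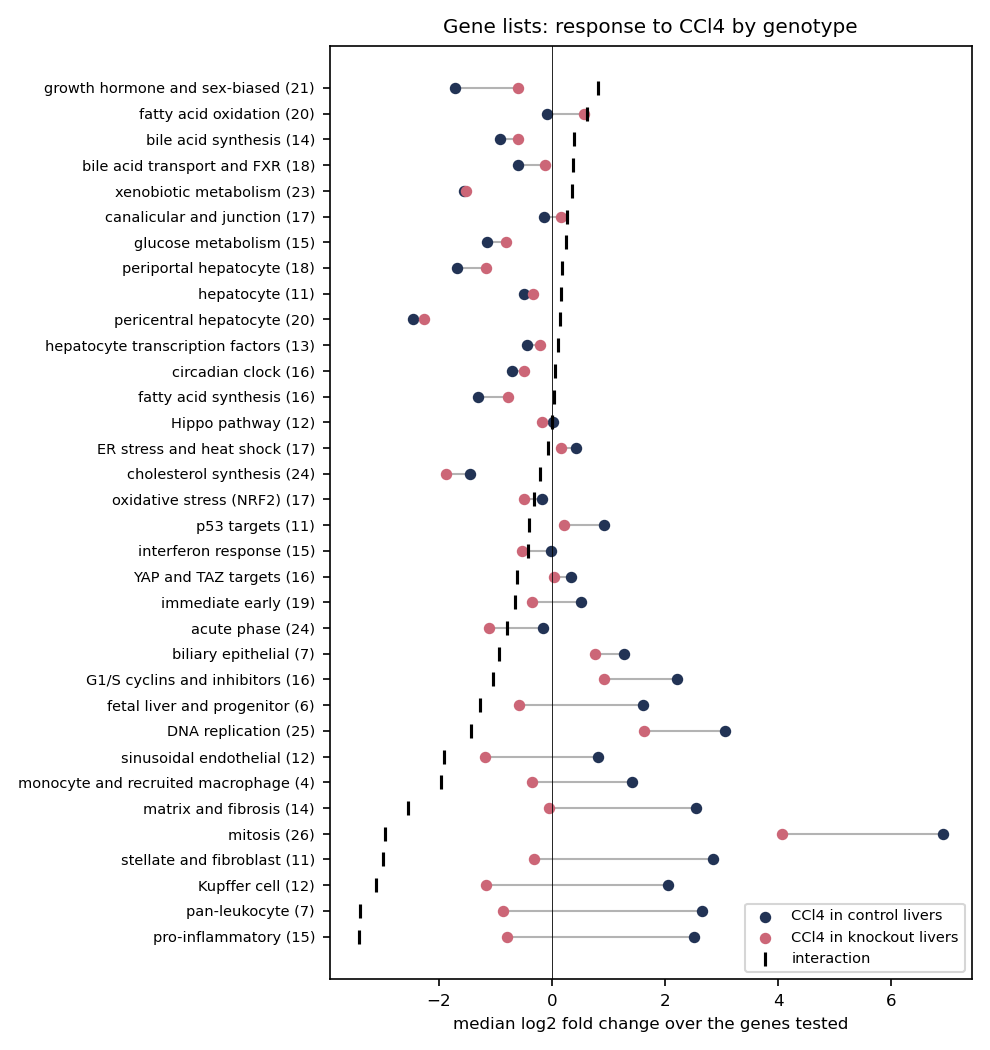
Median log2 changes with CCl4 in control (dark blue) and knockout livers (red) and the median interaction (black tick) for each list of 4 or more genes tested (pancreatic genes left out), with the number of genes tested in brackets and lists ordered by the interaction. Mitosis lies furthest right in both genotypes (6.91 and 4.07), pro-inflammatory genes have the lowest median interaction (-3.41), and pericentral genes have similar medians in both (-2.46 and -2.25).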

How the data were processed

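Per the labels' protocols, the libraries hold 3′ tags (QuantSeq FWD) sequenced from 1 end over 50 bases. Trimmomatic 0.39, HISAT2 2.1.0 and the builds GRCm38/mm10 are named in the submitters' processing notes. How reads were assigned to genes, including annotation and strand, is not given in the sources used here. The authors deposited raw counts per gene symbol, 24951 genes in hepatocytes and 26233 in macrophages. Totals were 931496 to 7535053 counts per hepatocyte library and 596380 to 5128587 per macrophage library, so that the precision of low transcripts differs between libraries.

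Counts were fitted in R 4.3.3 with edgeR 4.0.16 (filterByExpr, TMM factors, robust quasi-likelihood F tests with deviances adjusted for small counts), in 1 fit of 4 groups, with Benjamini-Hochberg adjustment over all transcripts tested at 0.05. Each standard error was taken as log2 value / sqrt(F) and is approximate. The labels do not say more of the replicates than 1 mouse each. Chi-square over its degrees of freedom was 5.76 to 42.5 for library pairs of a group, so none was a copy of another. CPM values are scaled by TMM, except marker sums and the macrophage ratio, which use library totals. List scores use a pseudocount of 1, and counting intervals (confidence level 95%) and the floor of 3 counts per group cover counting error only. Positions are of the GRCm38 annotation.

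The members and lists were chosen with earlier results of these data known. With 40 or fewer calls every called transcript was to be named, beside Yap1, Wwtr1 and up to 4 genes of lowest p per list described. Of the genes this gives, 1 is not reported here. File numbers leave a gap from 14 to 25, which separates the 2 file series. The alternatives tried were no filter, RLE factors, DESeq2 1.42.0, limma 3.58.1 voom, a fit that was not robust, the file series as a term or the second alone, mouse 15 left out or moved, thinning to the smallest total, and each library left out. Added after seeing the data were the earlier quasi-likelihood method, leaving out knockout mice 4 and 20 together, knockout mouse 20 alone for the lists, macrophage mouse 11 left out, and mouse 15 left out with a series term. The scripts were tested on simulated counts.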

Additional observations from a re-analysis of the deposited data

Results flagged for a closer look

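The response to CCl4 differed between genotypes, by the test of the interaction itself, for 21 transcripts. The log2 interactions were 3.98 for Krt23 and 1.61 for Abca8a. Below 0, those of transcripts not macrophage-high were -5.56 for Clca3a1, -3.18 for Nid1, -2.34 for Haus8, -2.83 for Myc, -3.07 for Nrg1 and -2.55 for Incenp. Macrophage-high ones were -3.56 for Nin, -4.07 for C3ar1, -4.70 for Apbb1ip, -4.79 for Slc11a1, -4.67 for Ifi27l2a, -5.96 for Mmp12, -5.43 for Slc7a8, -4.15 for Clec12a, -6.78 for Fabp7, -5.37 for Fgl2, -4.72 for Ccl3, -4.21 for Gm14023 and -3.96 for Cd84.

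Single mice stood far from their group in 9 of 69 groups of 4 to 6 libraries examined for the called and targeted genes. The rule flags about 1 in 20 by chance for normally distributed values, which CPM of few reads are not. In uninjured controls 3 counts equal 3.03 CPM in mouse 6 and 2.88 CPM in mouse 19, so their flags rest on few reads. The number of flags is thus no measure of aberrant mice. Among uninjured controls, mouse 19 was highest for Slc11a1 (4.24 CPM), Mmp12 (6.37 CPM) and Nrg1 (3.18 CPM), and mouse 6 for Slc7a8 (3.52 CPM), Fabp7 (3.52 CPM) and Ccl3 (4.69 CPM). Among knockouts with CCl4, mouse 14 was lowest for Nin (1.55 CPM) and mouse 18 highest for Mmp12 (4.31 CPM). Uninjured knockout mouse 4 was highest for Wwtr1 (40.6 CPM).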

How the results depend on the processing

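No paired analysis was possible because the 4 hepatocyte groups share no mouse numbers. The count of 21 interactions became 34 with RLE factors, 113 without a filter, 61 with DESeq2, 33 with limma voom and 54 with the series term. It was 2 without mouse 15, and 15 without mouse 15 and with the series term. It was 0 with mouse 15 as a knockout, thinning, the earlier quasi-likelihood method or knockout mice 4 and 20 left out. The second series alone is left out of this count, since it held a single control library with CCl4. Leaving out 1 library gave 0 to 93 calls: 0 without uninjured control mice 2 or 8, uninjured knockout mice 4 or 5, injured control mouse 16 or injured knockout mice 13, 14 or 17, and 93 without uninjured knockout mouse 21. Of 62 named genes, 0 changed the sign of the interaction in 1891 pairs of gene and setting. Most were named for a low p in these same libraries, and the settings share most libraries, so this is no separate support. The fit without mouse 15 stands in these pairs both by itself and as a single library left out.

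CCl4 in controls called 2652, and 502 in the second series alone. CCl4 in knockouts called 1341, and 751 to 1398 with 1 library left out. Knockout without CCl4 called 762, and 79 with the series term, 50 in the second series alone, 319 after thinning, 68 without mice 4 and 20, 58 without mouse 15 and with the series term, and 288 to 935 with 1 library left out. Knockout after CCl4 called 17, and 38 without a filter, 52 with DESeq2, 49 with limma voom and 3 with the series term. It called 4 without mouse 15, 0 with it as a knockout and 3 after thinning. Without mouse 15 and with the series term it called 3, and with 1 library left out 4 to 130. With a minimum of 1 for a reversed response, 9 were blunted, and the macrophage-high count was 14 at 4-fold and 13 at 16-fold.

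Without mice 4 and 20 the median interaction was -0.61 for mitosis, -0.74 for DNA replication and -0.14 for biliary markers. With 1 library left out, medians ranged from -3.51 to -0.76 for mitosis, -1.67 to -0.69 for DNA replication, 0.22 to 0.57 for bile acid transport, -3.79 to -2.76 for pro-inflammatory genes, -3.39 to -2.08 for matrix, -0.90 to -0.44 for YAP and TAZ targets and -1.25 to -0.18 for biliary markers. The cause of these shifts was not tested. Depth limits transcripts of few counts, since 3 counts in the smallest library exceed many control levels.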

Other observations

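Genes set by growth hormone and sex, which hepatocytes express, had a median interaction of 0.82 over 21 tested. Of these 2 lay above 0 (background 3.42%) and 0 below (background 6.78%) at an unadjusted p under 0.05, with 0 called. Without uninjured knockout mouse 21, 6 lay above 0 at that p. Immediate early genes, the first to be transcribed after a stimulus, had a median of -0.66 over 19 tested, with 6 below 0 at that p, Myc called, and 5 of the 19 macrophage-high. Genes of the NRF2 response to oxidative stress had a median of -0.31 over 17, with 3 below 0 at that p and 0 called, and interferon response genes had one of -0.43 over 15, with 3 below 0 (1 to 5 with 1 library left out) and 0 called.

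Transcripts of pancreatic digestive enzymes appeared in some liver libraries. The sum of 9 such genes was 0.8 to 2530 CPM in uninjured controls, 0 to 4.75 CPM in uninjured knockouts, 74.7 to 953 CPM in controls with CCl4 and 0.89 to 159 CPM in knockouts with it. Of the 7 tested 0 were called by edgeR's quasi-likelihood test, and 0 had an unadjusted p under 0.05.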
